A study of Danio rerio with 2 samples.

Results

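Neurotransmitter receptors are the proteins on nerve, muscle and gland cells that bind a released transmitter and turn it into a current or an internal signal. The genes described here were taken by symbol from the deposited gene table. They cover receptors for GABA, glutamate, glycine, acetylcholine, serotonin, dopamine and adrenaline or noradrenaline. The symbols matched 158 of the 33733 genes in the table, leaving out grm6a and grm6b, and 114 of these reached 1 FPKM in at least 1 library and were compared. FPKM counts the fragments of a gene relative to transcript length and library size, so levels of different genes can be set side by side. Of the 44 genes below that level, 11 were listed at 0 in both libraries. Just inside the level stood drd7, whose higher value was 1.01 FPKM, and just outside it grid2ipa, with 0.974 FPKM. The name rule also took 3 genes that are not receptors, of which 2 were compared. They are adrbk2, a kinase that acts on receptors, and grid2ipb, whose symbol names a protein that interacts with a delta glutamate receptor.

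The study compared whole zebrafish larvae of the AB/TL strain at 5 days post fertilisation. One group was homozygous for the lri25 mutation, and the other was the wild-type siblings of the same clutch. Each group was 1 library of RNA from 20 pooled larvae. With 1 library per group there is no spread between samples, no difference has a replicate check and no test was run, so every value describes these 2 pools. Which gene carries lri25 is not stated in the labels, and no receptor gene serves as a check on the genotype.

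Receptors fall into channel-forming and G protein-coupled kinds. GABA-A and glycine receptors are chloride channels that mostly inhibit neurons, AMPA, NMDA and kainate receptors are cation channels that carry fast excitation, and nicotinic receptors are cation channels at the nerve-muscle junction and between neurons. The subunits that make up a channel set its kinetics, its pharmacology and where it sits, and G protein-coupled receptors act more slowly through second messengers. In zebrafish many of these genes exist as pairs of duplicates, named a and b.

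Receptor transcripts were lower in the mutant library more often than higher. On the scale of log2((mutant FPKM + 1)/(wild-type FPKM + 1)), called the difference below, 84 of the 114 genes lay below 0, which is 73.7%, against 51.0% of the 20256 genes compared in the whole table. The median difference was -0.27 over the receptor genes and -0.01 over all genes. At a difference of 1 or more either way, a 2-fold gap on this scale, 19 receptor genes were lower and 2 were higher. Over all genes compared, 7.12% were lower by that much and 6.08% were higher, and the 19 lower genes make up 16.7% of the receptor genes. A gene that reaches the level floor in only 1 library has to differ, so those that reached it in both were also counted alone. Among 85 such receptor genes 8 were lower and 1 higher, which is 9.41% and 1.18%, against 3.95% and 3.33% of 17510 such genes in the table.

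**Figure D1:**
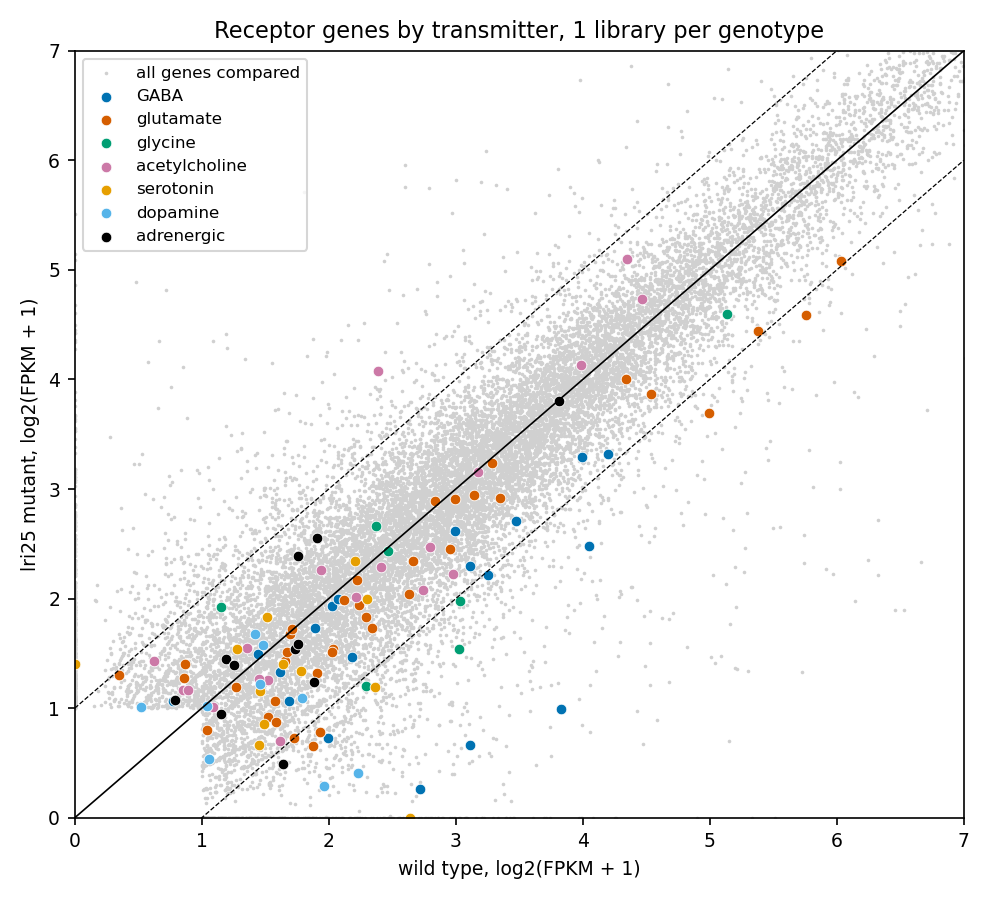
Level of each receptor gene in the wild-type library (x axis) and the mutant library (y axis), both as log2(FPKM + 1), coloured by transmitter over all 20256 genes compared in grey (genes beyond 7 on either axis are not drawn). The solid line marks equal levels and the dashed lines a 2-fold gap; 19 receptor genes lie on or below the lower dashed line and 2 on or above the upper line, and the black point on the solid line at about 13 FPKM is the kinase adrbk2.

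Most receptor genes were low in a whole-larva library. Of the 114 compared, 76 stayed under 5 FPKM in both libraries and 8 reached 20 FPKM in a library. The difference varied with that level, though the added 1 FPKM also draws the differences of low genes towards 0. With a higher value between 1 and 5 FPKM, 76 genes had a median difference of -0.19, against -0.05 over all genes of that range. It was -0.55 for the 30 between 5 and 20 FPKM, against -0.02 over all genes of that range. For the 8 genes between 20 and 100 FPKM it was -0.81, against 0.05.

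By transmitter, the medians ran from -0.71 for 19 GABA receptor genes to -0.01 for 11 adrenergic genes. Between them lay glycine at -0.54 (7 genes), glutamate at -0.43 (37 genes), serotonin at -0.30 (12 genes), dopamine at -0.24 (9 genes) and acetylcholine at -0.02 (19 genes). The glutamate genes include grid2ipb, and the adrenergic genes include the kinase adrbk2, whose own value is the adrenergic median. Without these, which are not receptors, the medians were -0.39 for glutamate (36 genes) and -0.0135 for the adrenergic genes (10 genes). Genes at least 2-fold lower numbered 6 for GABA (31.6%), 5 for glutamate (13.5%), 3 for glycine (42.9%) and 2 for serotonin (16.7%). They numbered 2 for dopamine (22.2%), 1 for the adrenergic genes (9.09%) and 0 for acetylcholine. Over all genes compared the share was 7.12%, and the adrenergic and acetylcholine counts are near it. The 2 genes at least 2-fold higher were 1 acetylcholine (5.26%) and 1 serotonin (8.33%) receptor gene, near the 6.08% of all genes compared. Channel-forming subunits outside muscle had a median of -0.52, with 52 of 63 below 0, and G protein-coupled receptors one of -0.20, with 29 of 43 below 0.

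**Figure D2:**
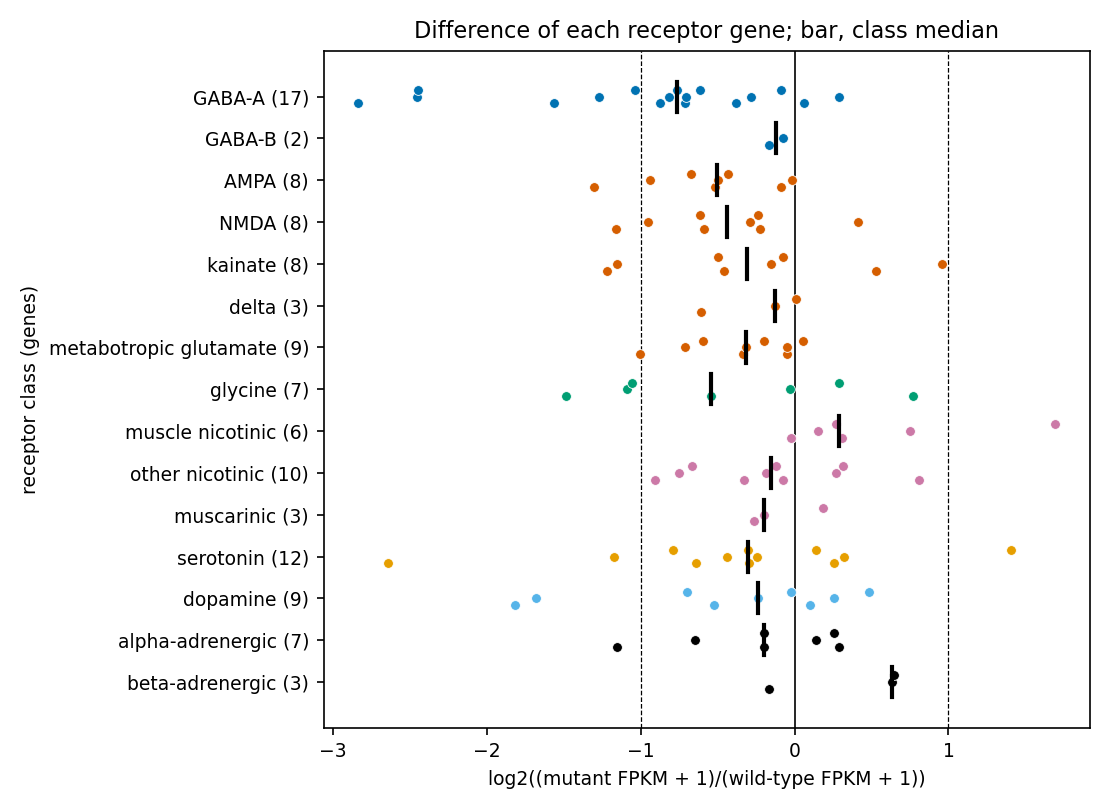
Difference of each compared receptor gene, log2((mutant FPKM + 1)/(wild-type FPKM + 1)), by receptor class (number of genes in brackets), with a black bar at the class median. Dashed lines mark 2-fold; GABA-A genes reach furthest to the left with a median of -0.76, and the muscle nicotinic (0.29) and beta-adrenergic medians lie to the right of 0.

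The library pools every tissue, so fewer cells of a type and less RNA per cell cannot be told apart in these values. Levels of other nervous and muscle genes are given here beside them, from marker lists chosen with earlier results of these data known. Over all genes compared, 51.0% lay below 0. Of 18 compared neuron marker genes 16 lay below 0, with a median of -0.44 (gap43 and a second stxbp1b were listed at 0 in both libraries), and a summed level of 1377 FPKM in wild-type and 1032 FPKM in mutant larvae. Inner retinal neuron markers had a median of -0.70, with 16 of 19 below 0 and sums of 210.2 and 107 FPKM. All 12 compared photoreceptor markers were at least 2-fold lower, against 7.12% of all genes compared, with sums of 4764 and 165 FPKM. Skeletal muscle markers had a median of 0.16, with 8 of 11 above 0 and sums of 41299 and 47440 FPKM. The part of these tissues in the receptor differences was not tested.

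GABA-A receptors are built mainly from alpha and beta subunits with a gamma or delta subunit. Summed over their 17 compared genes, GABA-A transcripts stood at 124 FPKM in wild-type and 53.2 FPKM in mutant larvae, and 15 of the 17 lay below 0. Among alpha subunits, the gene gabra6a, whose mammalian counterpart is known from cerebellar granule cells (ENSDARG00000075058, Zv9 chromosome 14, 23143223 to 23171754), was at 13.2 FPKM in wild-type and 0.996 FPKM in mutant larvae. It was 13.3-fold lower, the lowest difference of all 114 genes at -2.83, and its share of summed alpha transcripts went from 28.0% to 4.99%. It shares its locus with nudcd2, which was at 13.4 and 14.1 FPKM. Its neighbour on chromosome 14, the beta subunit gene gabrb2, differed far less, at 6.97 and 5.12 FPKM.

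The alpha gene gabra5 lies at a locus it shares with another gene, so its level is less certain. The level of gabra5 was 8.56 FPKM in wild-type and 3.66 FPKM in mutant larvae, a difference of -1.04. Gene gabrd, for the delta subunit of extrasynaptic receptors, was at 17.4 and 9.01 FPKM, and gabra3 at 7.67 and 3.92 FPKM, each short of 2-fold on this scale. A cluster on chromosome 13 held low genes that lay close together in both libraries. There, GABRA2 (3 of 3) was at 2.07 and 1.52 FPKM, GABRA2 (2 of 3) at 0.713 and 1.09 FPKM and GABRG1 at 1.72 and 1.83 FPKM. The latter pair were the only GABA-A genes compared that lay above 0. The pi subunit gene gabrp was at 3.07 and 2.83 FPKM.

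The subunits encoded by gabrr genes form GABA-gated channels that in mammals are best known from retinal bipolar cells. All 5 compared gabrr genes lay below 0, and their sum was 21.97 FPKM in wild-type and 4.31 FPKM in mutant larvae, 5.10-fold lower. The gene gabrr2a (ENSDARG00000052982, chromosome 17, 15687004 to 15807985) was at 5.57 and 0.201 FPKM, 27.7-fold lower; syne3, at the same locus, was at 4.63 and 4.57 FPKM. At chromosome 20, 1155401 to 1174574, gabrr1 (ENSDARG00000043902) was at 7.65 and 0.586 FPKM, 13.1-fold lower. Its neighbour gabrr2b was below the floor, at 0.750 and 0.192 FPKM. The level of gabrr3b was 2.99 FPKM in wild-type and 0.656 FPKM in mutant larvae, a difference of -1.27. The remaining gabrr genes were short of 2-fold on this scale, GABRR1 (1 of 2) at 3.54 and 1.77 FPKM and gabrr3a at 2.22 and 1.10 FPKM. Transcripts of these 5 genes made up 17.7% of the summed GABA-A level in wild-type and 8.10% in mutant larvae. The inner retinal marker vsx1, a transcription factor of bipolar cells, was at 37.7 and 4.50 FPKM, and nyx, another bipolar cell gene, at 6.79 and 1.08 FPKM. GABA-B receptors, the G protein-coupled kind, lay close together, gabbr2 at 3.20 and 2.99 FPKM and gabbr1b at 2.72 and 2.32 FPKM.

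**Figure D3:**
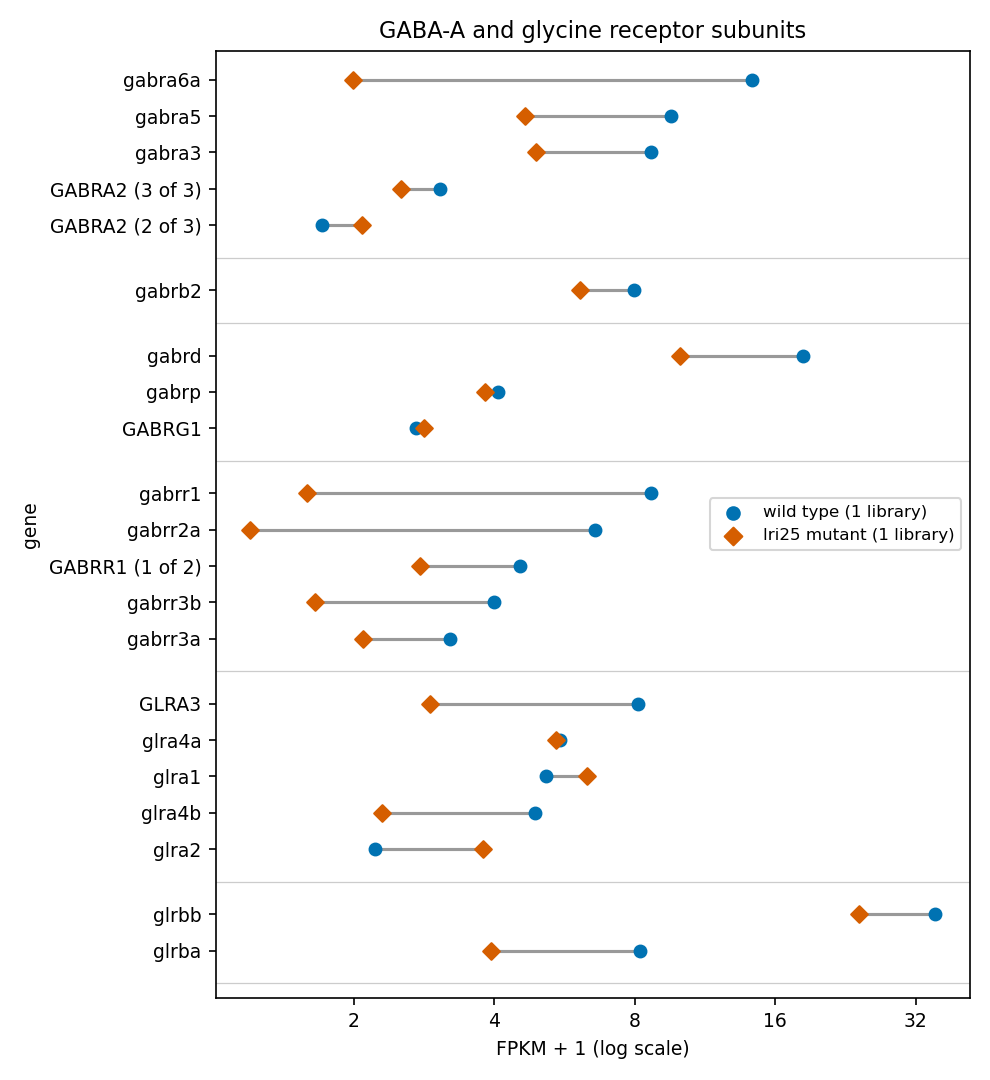
Levels of 14 GABA-A and 7 glycine receptor subunit genes in the wild-type library (circles) and the mutant library (diamonds), as FPKM + 1 on a log axis. Blocks from top to bottom are GABA-A alpha, beta, gamma with delta and pi, and gabrr-encoded subunits, then glycine alpha and beta subunits. The long bars are gabra6a, gabrr1 and gabrr2a, each under 1 FPKM in the mutant. Each was over 10-fold lower by FPKM without the added 1, and the drawn gap is smaller.

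Glycine receptors are chloride channels of spinal cord, hindbrain and retina, made of alpha subunits that bind glycine and a beta subunit that anchors them at the synapse. Of 7 genes compared, 3 (42.9%) were at least 2-fold lower and 0 higher, against 7.12% and 6.08% over all genes compared. With 7 genes, a count of 0 higher is near that share. GLRA3 (ENSDARG00000011066, chromosome 1, 38827489 to 38873612) had the largest difference of this class, at 7.14 FPKM in wild-type and 1.91 FPKM in mutant larvae, 3.74-fold lower. The duplicates of the alpha 4 gene parted. Gene glra4b was at 3.90 and 1.30 FPKM, and glra4a at 4.53 and 4.42 FPKM. On the other side lay glra2, at 1.22 and 2.79 FPKM, and glra1, at 4.17 and 5.32 FPKM, both short of 2-fold on this scale. The leading alpha gene was not the same in both libraries. GLRA3 held 34.1% of summed alpha transcripts in the wild type, and glra1 held 33.8% in the mutant. Of the beta genes, glrbb was the most abundant glycine receptor gene at 34.3 and 23.2 FPKM, a difference of -0.54. Its duplicate glrba was at 7.19 and 2.94 FPKM, a difference of -1.06.

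Glutamate drives most fast excitation through AMPA receptors, whose subunits are encoded by gria genes. All 8 AMPA genes were compared and all 8 lay below 0, with a summed level of 121 FPKM in wild-type and 67.1 FPKM in mutant larvae. The most abundant was gria3a, at 40.7 and 20.8 FPKM, a difference of -0.94. The gria2 genes encode the subunit that, in mammals, limits calcium entry once its transcript is edited. Of these, gria2b (ENSDARG00000052765, chromosome 14, 36968744 to 37033972) was at 31.0 FPKM in wild-type and 11.9 FPKM in mutant larvae, and at -1.31 it was the 1 AMPA gene past 2-fold. Its duplicate gria2a was at 22.3 and 13.6 FPKM, a difference of -0.67. Between the libraries the gria2b share of summed AMPA transcripts went from 25.6% to 17.8% and the gria2a share from 18.4% to 20.3%. The other five were nearer, from -0.52 for gria1b, at 1.99 and 1.09 FPKM, to -0.02 for gria1a, at 2.24 and 2.20 FPKM. In that range, gria4b was at 9.19 and 6.54 FPKM, gria4a at 6.98 and 6.50 FPKM and gria3b at 6.74 and 4.48 FPKM.

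NMDA receptors need GluN1, which binds the co-agonist glycine, together with GluN2 subunits that bind glutamate. The GluN1 genes were the most abundant of all receptor genes compared in the wild-type library. Gene grin1a (ENSDARG00000027828, chromosome 21, 9892651 to 9926980) was at 64.6 FPKM in wild-type and 32.8 FPKM in mutant larvae, 1.97-fold lower and at a difference of -0.96 just short of the threshold. Its duplicate grin1b (ENSDARG00000025728, chromosome 5, 31237646 to 31281871) was at 53.0 and 23.1 FPKM, a difference of -1.16. The pair had like differences, and their sum was 118 FPKM in wild-type and 55.9 FPKM in mutant larvae. The 5 compared GluN2 genes were lower by less as a sum, 13.5 and 9.78 FPKM, so the ratio of GluN1 to GluN2 levels was 8.71 in wild-type and 5.72 in mutant larvae. Of these, grin2bb was at 4.07 and 2.31 FPKM, and grin2ab at 3.71 and 2.85 FPKM. The exception was grin2da, at 0.812 and 1.42 FPKM.

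Kainate receptors tune transmission on either side of the synapse, and in mammals also carry signals into OFF bipolar cells of the retina. Their 8 compared genes were all under 4 FPKM. The genes GRIK1 (1 of 2), at 2.67 and 0.575 FPKM, and GRIK2 (1 of 2), at 2.82 and 0.716 FPKM, were 4.65-fold and 3.94-fold lower. Other copies differed by less or the other way. Gene grik1a was at 3.11 and 1.90 FPKM, and GRIK2 (2 of 2) at 0.271 and 1.47 FPKM, a difference of 0.96. The high-affinity subunit genes lay on both sides, GRIK5 (2 of 2) at 3.90 and 2.56 FPKM, grik4 at 2.18 and 1.86 FPKM and grik5 at 0.83 and 1.64 FPKM. Delta receptors, which organise synapses rather than carry current in response to glutamate, were close in both libraries for grid1a, at 2.27 and 2.30 FPKM. Gene grid1b was at 1.88 and 0.888 FPKM.

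**Figure D4:**
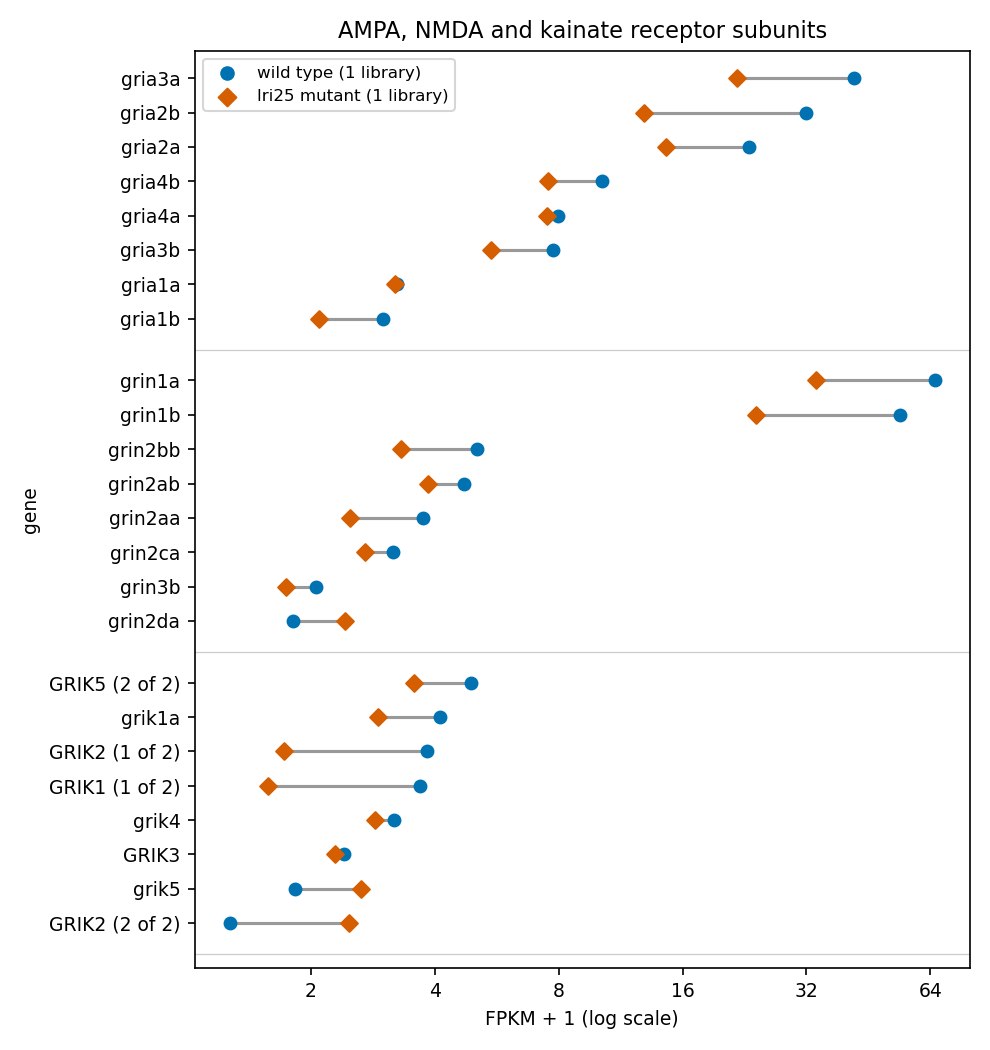
Levels of AMPA (top block), NMDA (middle) and kainate (bottom) receptor subunit genes in the wild-type library (circles) and the mutant library (diamonds), as FPKM + 1 on a log axis. Every AMPA gene and both grin1 genes are lower in the mutant; grin2da, grik5 and GRIK2 (2 of 2) are higher, all 3 under 2 FPKM.

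Metabotropic glutamate receptors are G protein-coupled. Those of group I raise calcium inside the cell, and those of groups II and III dampen release. Of the group I genes, GRM5 (1 of 2) was at 2.32 and 0.652 FPKM, a difference of -1.01 that is at the threshold, and grm1a at 5.22 and 3.11 FPKM. In group II, GRM2 (2 of 2) was at 8.75 and 8.41 FPKM, grm2a at 5.32 and 4.08 FPKM and grm3 at 1.995 and 0.83 FPKM. Group III genes lay close together in the libraries, with differences from -0.34 to 0.06. Of these, grm8a was at 7.84 and 6.70 FPKM and grm4 at 6.15 and 6.44 FPKM. The gene listed as grm7p, at 19.3 and 15.1 FPKM, has a locus of 264 bases, where levels per length are less certain.

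Muscle nicotinic receptors open the muscle membrane to motor nerve signals. They were the channel class whose summed level was higher in the mutant library, at 68.4 FPKM in wild-type and 100.5 FPKM in mutant larvae over 6 genes. The gamma subunit gene chrng, which in mammals belongs to the embryonic receptor (ENSDARG00000086647, chromosome 2, 45143065 to 45158422), was at 4.23 and 15.9 FPKM. It was 3.76-fold higher, a difference of 1.69 and the highest of all 114 genes. The epsilon subunit gene chrne, which in mammals takes its place in the adult receptor, was at 21.1 and 25.6 FPKM. The ratio of gamma to epsilon levels was 0.200 in wild-type and 0.621 in mutant larvae. The ligand-binding alpha gene chrna1 was at 19.4 and 33.2 FPKM, a difference of 0.75; it shares its locus with atp5g3b, at 1223 and 1134 FPKM, and with lnpb and wipf1. Other subunit genes differed little, chrnd at 14.9 and 16.6 FPKM and chrnb1 at 8.03 and 7.90 FPKM. Genes that assemble the nerve-muscle junction had a median of 0.19, with 6 of 8 above 0. Among them rapsn, which anchors these receptors, was at 11.0 and 11.3 FPKM. COLQ (2 of 2), for the tail that holds acetylcholinesterase there, was at 8.74 and 10.0 FPKM. DOK7 (2 of 2), an activator of the receptor-clustering kinase, was at 0.423 and 2.17 FPKM. The more abundant gene listed as dok7 lay on the other side of 0, at 4.19 and 3.68 FPKM.

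Outside muscle, 10 nicotinic genes were compared and none was 2-fold apart on this scale, where 13.2% of all genes compared were. With 10 genes, a count of 0 is near that share. The most abundant in the wild-type library was chrna5, an accessory subunit, at 6.86 and 3.68 FPKM. Close to it were chrnb2b, at 5.97 and 4.55 FPKM, chrnb3a, at 5.69 and 3.21 FPKM, and chrna6, at 4.32 and 3.89 FPKM. The lowest difference, -0.91, was that of chrna10a, whose mammalian counterpart serves efferent input to hair cells, at 2.06 and 0.630 FPKM. The highest was that of chrna2b, at 0.545 and 1.70 FPKM. Of 3 neighbours on chromosome 1, chrnb3a, chrna6 and chrnb2a, the first was at -0.67, the second at -0.12 and the last at 0.32. Muscarinic receptors, the G protein-coupled kind, were represented by chrm4a at 3.63 and 3.04 FPKM, chrm3a at 1.87 and 1.39 FPKM and chrm2a at 1.56 and 1.92 FPKM.

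**Figure D5:**
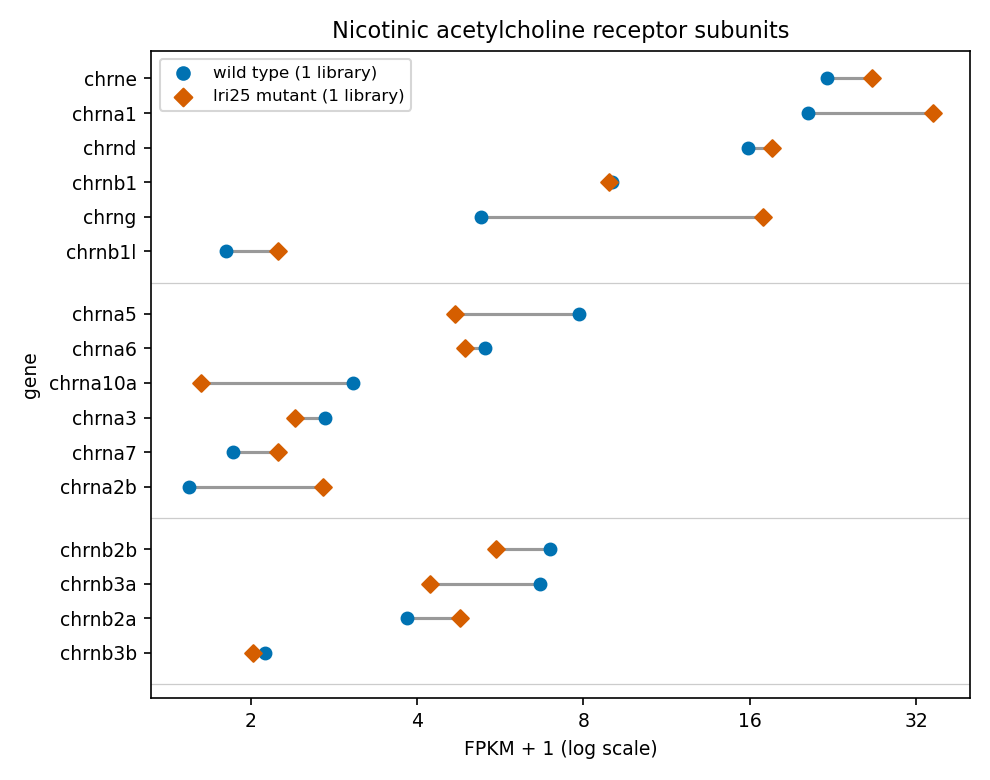
Levels of nicotinic acetylcholine receptor subunit genes in the wild-type library (circles) and the mutant library (diamonds), as FPKM + 1 on a log axis. The top block holds the muscle subunits, where chrng is 3.76-fold higher in the mutant by FPKM without the added 1. The lower blocks hold the other alpha and beta subunits, all within 2-fold on the FPKM + 1 scale.

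Serotonin acts on the htr3 channels and on several G protein-coupled receptors. Both channel genes were lower in the mutant library, htr3a at 4.16 and 1.29 FPKM, 3.22-fold lower, and htr3b at 1.74 and 0.581 FPKM, 2.99-fold lower but with a difference of -0.79. They lie in 1 cluster on chromosome 21, together with a second gene of the name htr3a that was listed at 0 in both libraries. HTR7 (4 of 4), a receptor type that raises cyclic AMP, was at 5.24 FPKM in wild-type larvae and listed at 0 in the mutant, at a locus of 742 bases. HTR4, another of that kind, was at 1.65 FPKM in mutant larvae and listed at 0 in their siblings. No fold is given for these, since a listed 0 can be a failed estimate. The htr1 and htr2 genes with the highest levels lay close in both libraries, htr1aa at 3.93 and 2.99 FPKM and htr2cl1 at 3.62 and 4.07 FPKM.

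Dopamine receptor genes were all under 4 FPKM. Among 9 compared, the D4 duplicates stood apart from the rest: drd4b (ENSDARG00000035820, chromosome 7, 58677269 to 58715448) was at 3.70 FPKM in wild-type and 0.330 FPKM in mutant larvae, and drd4a at 2.90 and 0.219 FPKM. They were 11.2-fold and 13.2-fold lower, with differences of -1.82 and -1.68. Their mutant levels are of few fragments, and drd4a is at a shared locus. With 5 FPKM added in place of 1, both were short of 2-fold, at -0.71 and -0.60. In the mouse, D4 receptors are known from photoreceptors. The other seven ranged from -0.70, for drd1b at 2.46 and 1.13 FPKM, to 0.49, for drd7 at 0.436 and 1.01 FPKM. With a name close to the D4 genes, drd4-rs was at 1.79 and 1.99 FPKM, and DRD5 (2 of 2) was at 1.68 and 2.20 FPKM.

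Adrenergic receptors bind adrenaline and noradrenaline in the brain and in peripheral organs. The 1 gene past 2-fold was adra1bb, which acts through calcium, at 2.12 and 0.405 FPKM, 5.24-fold lower. The remaining alpha genes ranged from -0.65, for adra2c at 2.70 and 1.37 FPKM, to 0.29, for ADRA1A (2 of 2) at 0.728 and 1.11 FPKM. Between those ends, adra1d was at 2.34 and 1.90 FPKM, adra2a at 1.29 and 1.73 FPKM and adra2da at 1.38 and 1.62 FPKM.

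Duplicate pairs gave another view within the receptor set. In 16 a and b pairs both genes were compared, and in 13 pairs both lay below 0, in 1 pair both above and in 2 on opposite sides. Most of these pairs are glutamate, GABA or glycine receptor genes, the transmitters with the lowest medians. Genes listed under other names were not paired. Among those left out, the GRIK2 genes lay on opposite sides of 0, and gabrr1 and GABRR1 (1 of 2) both below it. The share of such pairs over all genes was not computed. In 7 of the 16 a and b pairs the gap was 0.5 or more on the log2 scale. Among these pairs it was widest, at 1.06, for glra4. The beta glycine gene and the AMPA 2 gene lie side by side in 2 places, glrba with gria2a on chromosome 1 and glrbb with gria2b on chromosome 14. On chromosome 1 the glycine gene had the lower difference, -1.06 against -0.67, and on chromosome 14 the AMPA gene did, -1.31 against -0.54.

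Genes that make, load or clear the transmitters were compared from lists chosen with earlier results of these data known. The shares over all genes compared were 13.2% at least 2-fold apart, 7.12% lower and 6.08% higher, so short lists hold few such genes either way. For GABA, 0 of 8 genes were 2-fold apart and the median was -0.41, with the synthesis gene gad1b at 82.9 and 46.6 FPKM and the transporter slc6a1b at 74.2 and 52.7 FPKM. For glutamate the median was -0.50, and 1 of 15 was 2-fold lower and 1 higher, 6.67% each and near the shares over all genes. These were the uptake transporters slc1a2a, at 15.6 and 0.717 FPKM, and slc1a3b, at 24.5 and 103 FPKM, while the glutamine synthetase genes glula and glulb were at 238 and 168 FPKM and at 271 and 390 FPKM. Glycine transport was covered by 3 genes with a median of -0.13, among them slc6a5 at 3.26 and 2.02 FPKM and slc6a9, at a shared locus, at 13.2 and 21.5 FPKM. For acetylcholine, ache, the enzyme that breaks it down, was at 45.3 and 36.6 FPKM and the vesicle transporter slc18a3a at 13.7 and 8.60 FPKM. Of 13 monoamine genes 0 were 2-fold apart, with a median of -0.36, comta at 18.6 and 10.7 FPKM and mao at 19.9 and 14.4 FPKM.

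Scaffold and auxiliary genes of central receptors had a median of -0.50, with 31 of 40 below 0. Of these 40, 4 (10%) were at least 2-fold lower and 0 higher, near the 7.12% lower of all genes compared. The most abundant, HOMER2, a group I metabotropic scaffold, was at 29.5 and 41.7 FPKM, and gphna, a gephyrin gene for the anchor of glycine and GABA-A receptors, at a shared locus, at 23.6 and 26.2 FPKM. The other gephyrin gene, gphnb, lay on the other side of 0, at 11.3 and 6.98 FPKM. Among the 4 lower genes were the AMPA auxiliary gene cacng7a, at 2.39 and 0.521 FPKM, and a dlg4b gene for the NMDA receptor anchor, at a shared locus, at 8.25 FPKM in wild-type larvae and listed at 0 in the mutant. The kainate auxiliary genes neto2b, at 2.05 FPKM, and neto1, at 1.55 FPKM, were also listed at 0 in the mutant. A listed 0 can be a failed estimate, so no fold is given for such genes.

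In the authors' deposited table, which compares the reads of these 2 libraries and not the genotypes, 0 of the 114 receptor genes were marked significant, as against 68 genes, 0.202%, of the whole table. The lowest q-value among the receptor genes in the authors' deposited table was 0.624, for chrng. Unadjusted p-values are not given, since the share of low ones over all genes was not computed.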

How the data were processed

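RNA of whole larvae was sequenced after RNeasy extraction with a standard Illumina kit, per the labels' protocols. CASAVA, Bowtie and the Zv9 build are listed without versions in the submitters' processing notes; no source used here names the program that computed the levels. The authors deposited FPKM values for the 2 libraries in 1 table, whose layout and values fit FPKM though the labels do not name the unit, and the same deposited table holds a p-value and a q-value per gene. Its codes HKWT and HKMT were matched to the sample titles, of which the mutant's spells the allele lir25. Identifiers come from the second identifier column; 128 of the 158 matched genes had theirs in a table of zebrafish symbols and 64 carried the same symbol there. Another 9 genes with a receptor symbol there but another name in the deposited table were not taken, of which 3 reached 1 FPKM.

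Differences were computed with a pseudocount of 1 FPKM (pandas 2.3.3, Python 3.11.15). The calculation was checked on genes at 20 FPKM or more with set changes and no noise. That check does not cover lower levels, where most receptor genes lie. Starts are written 1-based, since 4 of 4 mitochondrial genes had spans equal to their RefSeq lengths when starts were counted from 0. No Zv9 annotation was used here. Of the genes compared, 35 share their locus with another gene, of which 10 have a partner above 0. The total number of fragments is unknown. Of 510 genes above 0 but under 0.5 FPKM on both sides, 206 had mutant over wild-type ratios from 0.7 to 0.83. So did 6 of 8 such receptor genes. If those values stand for 1 fragment each, the median ratio of the 206, 0.765, would make the mutant library 1.31 times deeper. That window bounds the estimate, and the rest of the 510 genes lie outside it. At unshared loci of 600 to 900 bp, with any values next to 0 left out, the lowest were 0.496 (wild type) and 0.467 FPKM (mutant). Levels near 1 FPKM are thus of few fragments.

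The members and lists were chosen with earlier results of these data known. Named are members at least 2-fold apart, the 4 most abundant of each class and its extremes. Of the lists, genes at least 2-fold apart and the 2 most abundant are named. Other members, other list genes, neighbours and partners were named after their values were seen. Some genes that this rule names are not reported here, though counts, sums and medians include them. Of the marker lists only genes that bear on a receptor class are named.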

Additional observations from a re-analysis of the deposited data

How the results depend on the processing

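With 1 library per group there is no replicate to leave out. No paired analysis was possible because each group has 1 sample. A median was taken as moved past 0.1 on the log2 scale and a count past 1.5 times. With a pseudocount of 0.1 the median of all receptor genes was -0.38 (GABA -0.94, serotonin -0.42, dopamine -0.37). Of the 114 genes 6 were then higher, against 9.21% of all genes. With a pseudocount of 5 the median of all receptor genes was -0.12 (GABA -0.50, glutamate -0.22, serotonin -0.14, dopamine -0.093), with 7 lower and 1 higher. Of the 21 genes at least 2-fold apart 13 were then short of it, and of all genes 1.78% were lower and 1.46% higher. With a floor of 5 FPKM, 38 genes were compared, with a median of -0.63 (GABA -0.96, glycine -0.80, serotonin -2.64 on 1 gene), 10 lower and 1 higher. The 10 are 26.3% of the 38, and of all genes at that floor 5.65% were lower and 4.80% higher. The acetylcholine median was then 0.064. With no floor GABA was at -0.55 and serotonin at 0. Without shared loci 12 of 79 (15.2%) were lower, against 7.12% of all genes with shared loci kept, and dopamine was at -0.13. Without values listed at 0, and with the mean of both libraries at 1 FPKM, an alternative chosen after seeing the data, 1 gene was higher in each. Of all genes 6.08% (values listed at 0 kept) and 5.14% were higher there. Centring on the median of all genes put the adrenergic median at 0.0039 and GRM5 (1 of 2) at -0.99. Leaving out the genes that are not receptors moved none of these. The GABA, glutamate and glycine medians were below 0 under every alternative run, and the dopamine median under each but the floor of 5 FPKM, which no dopamine gene reached. Depth limits genes near 1 FPKM most.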
